A study of Homo sapiens with 2 samples.

Results

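The atypical chemokine receptor CXCR7 (now named ACKR3) was examined in SAS and eSAS cells together with 8 genes of its ligand and receptor circuit, namely the receptors CXCR4 and CXCR3, the chemokines CXCL12, CXCL11, CXCL10 and CXCL9, and the beta-arrestins ARRB1 and ARRB2. CXCR7 was chosen by its measured difference between the 2 cell populations, so that difference is a description and is not put to a test, and the other 8 were taken for their place in the circuit. All probes carrying 1 of the 9 gene names were used, which gave 9 of the 30484 names on the array and 12 probes in 30 spots out of 41000 probes in 43376 spots. No further probe was found through the RefSeq accessions of these genes.

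SAS is an established line of human squamous carcinoma cells from a tongue tumour, and eSAS is the population obtained from it after 5 rounds of selection of large spheroids with Spheroid Catch, a tube with a removable filter. During selection the cells formed spheroids on low-adhesion plates in a medium with epidermal and basic fibroblast growth factors and B-27, and both populations were otherwise kept in DMEM with fetal bovine serum. RNA was taken from both in the log phase of growth. The study's methods describe taking a single cell to establish a line after selection, while the labels call eSAS a population, and whether the eSAS RNA came from 1 clone is not stated. No drug, transgene or knockdown entered these 2 samples. Each population was hybridised to 1 one-colour array, and there was no replicate, so no p-value is given and precision is limited by there being 1 array of each.

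Chemokine receptors are seven-transmembrane proteins that guide cell movement along gradients of small secreted ligands. CXCR4, the signalling receptor for CXCL12, couples to Gi proteins and is well known for its part in the spread of carcinomas. CXCR7 binds CXCL12 and CXCL11, does not start classical Gi signalling, recruits beta-arrestins and carries its ligands into the cell, so that it lowers their amount outside. CXCR3 is the receptor for CXCL9, CXCL10 and CXCL11, which are induced by interferon-gamma.

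By the criterion of the scanner software, 69.4% of probe spots were well above background for SAS and 67.5% for eSAS, with no saturated spot. The 75th percentile of the processed signal, to which each array was scaled, was 1242 for SAS and 1196 for eSAS. All 9 squamous epithelial marker genes were well above background on both arrays. Of their 11 probes, 10 had log2 ratios under 0, and the median of the 11 was -0.48, beside -0.0039 over all probes so detected. They included KRT5 at -0.63 and CDH1, the epithelial cadherin, at -0.48, and the probes of KRT14, a basal-layer keratin, were 95.4-fold and 2.35-fold lower in eSAS cells. Of 15 marker genes of endothelium, fibroblasts and leukocytes, 10 were not well above background on either array, among them PECAM1, COL3A1 and PTPRC. The summed signal over the probes of those 15 genes was 427 for SAS and 447 for eSAS, of which CD14 gave 215 and 233. LUM, a fibroblast proteoglycan, gave 3.21 for SAS, not well above background, and 29.6 for eSAS. The fibroblast marker COL1A1 and the endothelial marker CDH5 were well above background for SAS alone. COL1A1 gave 15.1 for SAS and 4.90 for eSAS, and CDH5 gave 17.0 and 6.88. The part of these markers in the results on CXCR7 and its circuit was not tested. The RNA came from whole cultures, so fewer cells expressing a gene and less of its RNA in each cell cannot be told apart.

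The CXCR7 signal was 1358 in SAS cells and 104 in eSAS cells, with an error from the software of 136 and 11.0. Its only probe, A_23_P131676, lies on the plus strand of hg18 at chr2:237155522-237155581. After scaling, the signal was 12.6-fold lower in eSAS cells, a log2 ratio of -3.65 with a software error of 0.21. The spot was well above background on both arrays and carried no mark for unevenness. An outlier mark compares the spots of a probe, so a probe with 1 spot could not receive it. Of the 26659 probes well above background on both arrays, 0.0113% had a ratio as low or lower. Over these probes the median log2 ratio was -0.0039 and its SD was 0.36. The plot of the 3 measured genes among all probes shows CXCR7 far outside the band of most probes.

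**Figure D1:**
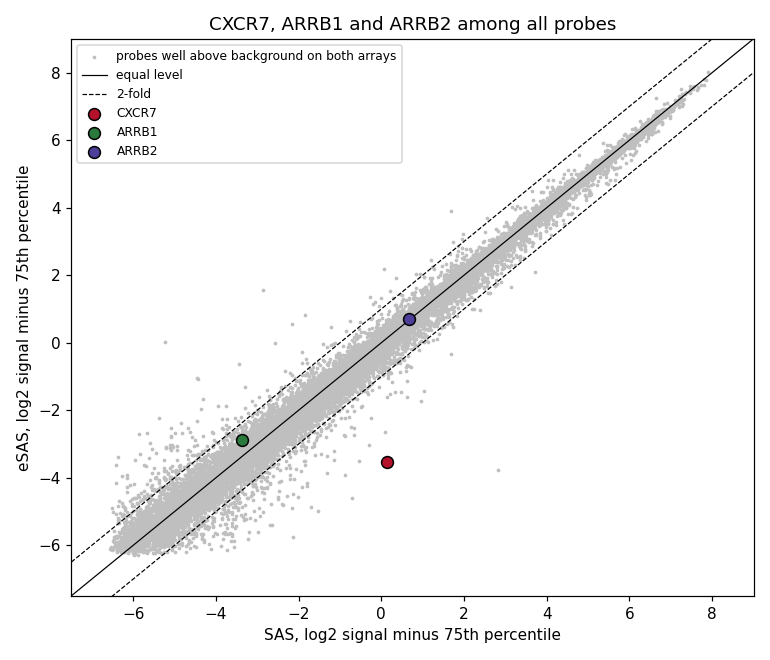
Level of each probe well above background on both arrays, as log2 of the processed signal minus the array's 75th percentile, in SAS (x axis) and eSAS cells (y axis); grey points are probes, the solid line marks equal levels and the dashed lines a 2-fold difference. CXCR7 lies well below the lower dashed line at a log2 ratio of -3.65, while ARRB1 and ARRB2 lie between the dashed lines.

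The pixels of the CXCR7 spot were examined because the gene rests on 1 spot per array. In SAS cells the mean and the median of its 63 pixels were 1358 and 1301, with a pixel SD of 234. In eSAS cells the mean and the median were 154 and 153, with a pixel SD of 33.7 over 63 pixels. The pixel SD was thus 0.172 and 0.219 of the mean, and at least as uneven were 15.3% of spots of like signal for SAS and 21.8% for eSAS. The local background at the spot was 30 and 26. Of the 8 spots around it, 7 were well above background on both arrays, and their log2 ratios lay between -0.42 and 0.72 with a median of -0.014. The low ratio was therefore not shared by the spots next to it.

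Probes printed in several spots gave the technical spread within these arrays. Over 211 such probes in 2026 spots, the pooled SD of the log2 ratio between spots of a probe was 0.080. In the 27 replicated probes within 2-fold of the CXCR7 signal in eSAS cells, the SD had a median of 0.10 and reached 0.28 at most. No spot was 2-fold from the median of its own probe, the largest deviation being 0.91 on the log2 scale. These values leave out the variation between cultures and are given as a description of the arrays.

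The size of the CXCR7 difference moved with the background correction. It was 8.51-fold lower in eSAS cells without any background correction and 7.71-fold lower with the normexp model fitted without the spots whose local background the software had marked. With normexp fitted on all spots the fold was 1.99, and with the median of the pixels used instead of their mean it was 1.92. Under those last 2 settings the median over all probes itself moved up, to 0.54, and CXCR7 lay at -1.53 and -1.48 relative to it. When normexp left out the 25 spots with marked local background, the median over all probes was -0.0091. CXCR7 was lower in eSAS cells under all 13 other settings, as the plot of the 3 measured genes by processing shows. Several of these settings could not change it, because it rests on 1 unmarked spot well above background on both arrays. They were the deposited series table, the changes of filter or lower limit, marked spots kept and gene means, all at -3.65.

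**Figure D2:**
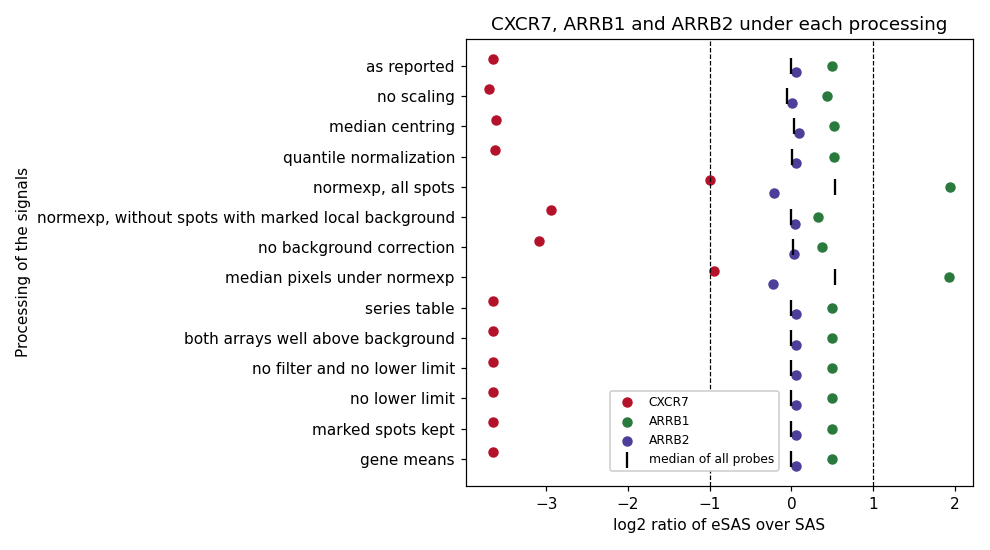
Log2 ratio of eSAS over SAS (x axis) for CXCR7, ARRB1 and ARRB2 under the processing used here and 13 others (y axis); black ticks mark the median of all probes and dashed lines a 2-fold difference. CXCR7 is left of 0 in every line, from -3.70 to -0.94, and the 2 lines where all 3 genes shift are those with normexp fitted on all spots.

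The 3 named probes with the log2 ratio nearest to that of CXCR7, where both arrays were well above background, are given as a likeness that rests on 1 difference between 2 arrays. ANXA10, an annexin, gave signals of 283 and 21.9 in SAS and eSAS cells, a log2 ratio of -3.64. ESPNL, a relative of the actin-bundling protein espin, gave 426 and 38.0 with a ratio of -3.43. ACP5, tartrate-resistant acid phosphatase, gave 384 and 41.4 with a ratio of -3.16.

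Neither of the 2 classical receptors was well above background in either population. CXCR4 was measured by 10 spots of 1 probe at chr2:136588423-136588482 on the minus strand of hg18. The lowest, median and highest signals of these spots were 2.75, 3.15 and 3.36 in SAS cells and 3.25, 3.66 and 3.88 in eSAS cells. All 10 were values that the software puts in where a spot is not above background, so they have no order between the arrays. CXCR3, with 1 probe at chrX:70752532-70752591 on the minus strand, gave 9.34 in SAS cells, significantly above background by the software's criterion but not well above it, and such a stand-in value of 3.04 in eSAS cells. No fold is given for any gene that was dim on both arrays.

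The 4 chemokines were likewise not well above background on either array. Of the 10 spots of the main CXCL12 probe, at chr10:44192894-44192953, the lowest, median and highest signals were 3.21, 7.47 and 13.8 in SAS cells and 4.14, 7.96 and 15.4 in eSAS cells. The 2 spots marked as outliers within the probe gave the lowest and the highest of the SAS signals. Without them the signals ran from 5.85 to 9.12 in SAS cells and from 4.14 to 15.4 in eSAS cells. The SAS range thus lay inside the eSAS range, and the medians above, which include the marked spots, have no order. The other CXCL12 probes, at chr10:44185623-44185682 and chr10:44197436-44197495, gave 6.35 and 13.1 in SAS cells and 4.88 and 3.45 in eSAS cells, so the probes did not share an order beyond their own spread.

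CXCL9, CXCL10 and CXCL11, the interferon-induced ligands of CXCR3, are neighbours on the minus strand of chromosome 4. The CXCL9 probe at chr4:77141820-77141879 gave 3.92 in SAS cells and 4.49 in eSAS cells. The CXCL10 probe at chr4:77161958-77162017 gave 3.19 and 3.72. The first CXCL11 probe, at chr4:77174639-77174698, gave 3.16 and 3.68, and all 6 of these values were stand-ins. The second CXCL11 probe, at chr4:77175291-77175446, gave 8.94 and 12.9, significantly but not well above background on both arrays.

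The plot of every spot shows the members in 2 layers. CXCR7, ARRB1 and ARRB2 were measured, while the 9 probes of the other 6 genes, in 27 spots, stayed between 2.75 and 13.8 on the SAS array and between 3.04 and 15.4 on the eSAS array. Of those 27 spots, 14 and 16 were not significantly above background. Over the whole array 30.3% of probes were not well above background on either array.

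**Figure D3:**
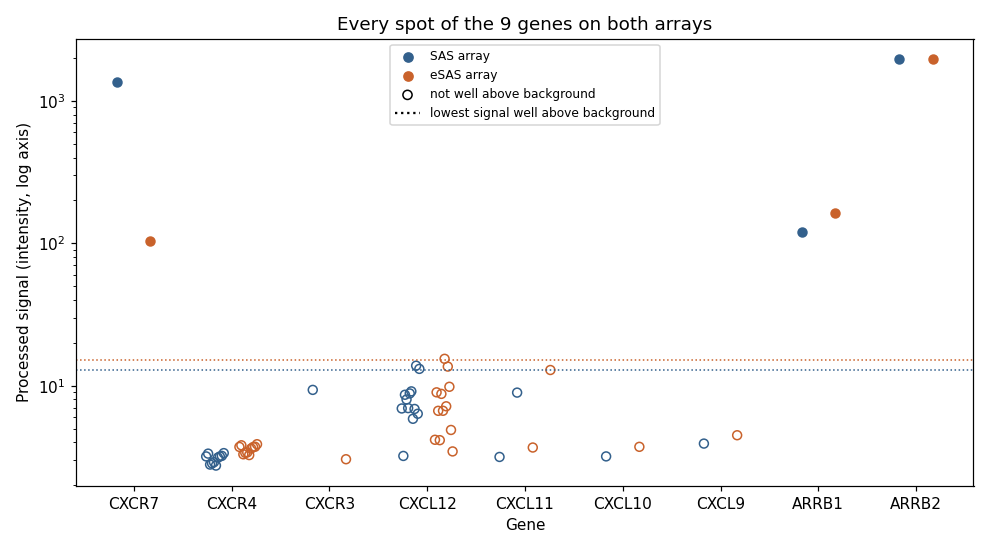
Processed signal (y axis, log scale, intensity units) of each of the 30 spots of the 9 genes (x axis) on the SAS and eSAS arrays; filled points are well above background, open points are not, and dotted lines mark the lowest signal well above background on each array, 12.8 for SAS and 15.2 for eSAS. The filled points are CXCR7, ARRB1 and ARRB2, and CXCR7 is the gene whose points stand far apart.

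The regulatory sequence upstream of the 3 neighbouring chemokine genes is shown because they are a known interferon-induced cluster and were dim together. Each line gives the 250 bases before the transcription start, 5' to 3' on the gene's own minus strand, from RefSeq on GRCh38.p14, at chr4:76007510-76007759, chr4:76023498-76023747 and chr4:76036071-76036320. Capitals mark matches to GAAANNGAAA, the core of an interferon response element, or to GGGANTTCC or GGGANNTTCC, forms of an NF-kappaB site.
CXCL9: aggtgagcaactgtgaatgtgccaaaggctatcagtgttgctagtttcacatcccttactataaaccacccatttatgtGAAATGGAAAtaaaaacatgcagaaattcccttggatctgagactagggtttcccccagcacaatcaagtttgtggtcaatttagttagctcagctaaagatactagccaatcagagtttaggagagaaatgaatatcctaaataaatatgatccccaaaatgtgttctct
CXCL10: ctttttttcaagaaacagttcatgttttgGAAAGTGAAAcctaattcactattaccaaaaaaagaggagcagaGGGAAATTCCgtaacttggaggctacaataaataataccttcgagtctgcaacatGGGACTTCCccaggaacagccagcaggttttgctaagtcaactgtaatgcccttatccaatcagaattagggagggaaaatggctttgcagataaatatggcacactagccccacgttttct
CXCL11: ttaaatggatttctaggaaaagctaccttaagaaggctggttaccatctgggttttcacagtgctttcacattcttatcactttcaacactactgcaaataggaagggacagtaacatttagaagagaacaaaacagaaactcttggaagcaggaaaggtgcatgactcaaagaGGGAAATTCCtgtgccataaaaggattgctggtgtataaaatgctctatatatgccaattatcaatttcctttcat

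CXCL9 held the interferon element as GAAATGGAAA, from 171 to 162 bases before its start. CXCL10 held it as GAAAGTGAAA, from 221 to 212 bases, and both NF-kappaB forms, GGGAAATTCC from 177 to 168 and GGGACTTCC from 122 to 114 bases before the start. CXCL11 held GGGAAATTCC from 76 to 67 bases before its start. On either strand, GAAANNGAAA was found in 3.02%, GGGANTTCC in 1.59% and GGGANNTTCC in 1.4% of 35116 upstream windows of that length. No match was found in the windows of CXCR4, CXCR3, CXCL12 and ARRB2, which says only that these letters are not there. The letters were chosen after the windows had been seen, and a match is a description, not a site in use.

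Both beta-arrestins, the adaptors that bind activated CXCR7 and CXCR4 and link them to endocytosis, were measured in both populations. ARRB2, at chr17:4571277-4571336 on the plus strand of hg18, gave 1959 in SAS cells and 1962 in eSAS cells, a log2 ratio of 0.056 with a software error of 0.20. ARRB1, at chr11:74654948-74656384 on the minus strand, gave 120 and 162, which was 1.41-fold higher in eSAS cells at a log2 ratio of 0.49 with an error of 0.21. Of all probes well above background on both arrays, 4.31% had a ratio as high as that of ARRB1 or higher, and 37.7% one as high as that of ARRB2. With normexp fitted on all spots the ARRB1 ratio was 1.95, while that of ARRB2 turned to -0.21. Under normexp without the marked spots ARRB1 was at 0.32 and ARRB2 at 0.040.

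Of the 12 member probes, 3 were well above background on an array, and 1 of these 3, that of CXCR7, was at least 2-fold lower in eSAS cells. Among 28439 probes detected in the same way 1.97% were, and CXCR7 had been chosen by that contrast. At 10-fold or more lower the share of all probes was 0.0246%, or 7 probes. None of the 3 was at least 2-fold higher, where 1.83% of probes were. Over all probes 48.2% of those 2-fold apart were higher, a share that was 98.4% with normexp fitted on all spots and 35.5% with normexp without the marked spots.

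Beyond these members, 60 genes of the circuit were followed in 8 lists. Of these, 42 genes had a probe well above background in SAS or eSAS cells, and 56 of their probes were so in both. No probe of the 60 genes was at least 2-fold lower in eSAS cells and 3 of the 59 tested were at least 2-fold higher, beside 1.97% and 1.83% of all probes tested, with a median log2 ratio of -0.032 over the 56. Without background correction, or with normexp without the marked spots, none of the 3 reached 2-fold.

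Of these 3 probes, 2 belonged to the list of other atypical receptors, grouped with CXCR7 because they do not start classical G-protein signalling. ACKR4, which takes up CCL19, CCL21 and CCL25, gave 13.7 in SAS cells and 36.7 in eSAS cells. This was 2.78-fold higher at a log2 ratio of 1.47 with a software error of 0.36. The SAS signal was close to the lowest one well above background on that array, 12.8. CCRL2, a receptor that binds chemerin, gave 30.0 and 70.3 with 1 probe, 2.43-fold higher, and 576 and 938 with the other, 1.69-fold higher. Both probes of CCRL2 were thus higher in eSAS cells, by unequal amounts. ACKR1 and ACKR2 were not well above background on either array. Over the 13 other settings the ACKR4 log2 ratio ran from 0.55 to 3.05 and that of the dimmer CCRL2 probe from 0.48 to 2.68.

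The third probe was that of PIK3CG, the phosphoinositide 3-kinase subunit activated by G-protein beta-gamma. It gave 56.7 in SAS cells and 120 in eSAS cells, 2.20-fold higher at a log2 ratio of 1.14 with an error of 0.23. The list of Gi signalling genes held 9 genes, of which 8 were measured on both arrays, with a median log2 ratio of 0.26 over 10 probes. Its lowest probe was that of GNAI2, a Gi alpha subunit, at -0.18. Both probes of RGS16, which speeds GTP hydrolysis by Gi alpha, were at 0.52 and 0.51.

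**Figure D4:**
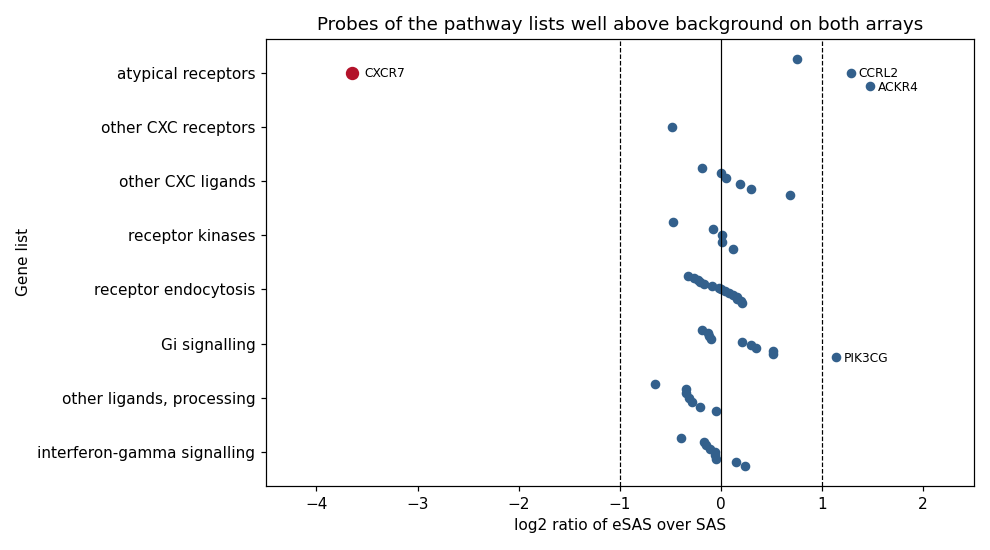
Log2 ratio of eSAS over SAS (x axis) for each probe of the 8 gene lists (y axis) that was well above background on both arrays, with CXCR7 added to the atypical receptors in red; dashed lines mark a 2-fold difference. CXCR7 stands at -3.65, no listed probe lies left of the lower dashed line, and ACKR4, 1 of the 2 CCRL2 probes and PIK3CG lie right of the upper one.

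The genes that phosphorylate and take up these receptors were mostly measured on both arrays. Over 5 probes of the G-protein-coupled receptor kinases, which tag activated receptors for arrestin, the median log2 ratio was 0.0090, with GRK2 highest at 0.13 and GRK5 lowest at -0.48. All 8 genes for endocytosis and sorting were measured, and the 15 probes had a median of 0.00029. Their range ran from -0.32 for ITCH, the ubiquitin ligase that sends CXCR4 to degradation, to 0.21 for HGS, a subunit of the sorting complex that takes it there. None of these 20 probes was 2-fold apart, which is close to the shares over all probes given above. With normexp fitted on all spots, GRK3 was at 1.35 and 1.33, STAM at 1.08 and 1 of the 4 HGS probes at 1.93. Under normexp without the marked spots, GRK3 was at 0.018 and -0.0093, STAM at 0.14 and that HGS probe at 0.12.

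Among 11 other CXC chemokines, 5 genes were not well above background on either array. The 6 probes measured on both had a median log2 ratio of 0.12, from -0.19 for CXCL2 to 0.69 for CXCL1, a neutrophil attractant that acts through CXCR2. CXCL1 gave 1017 in SAS cells and 1576 in eSAS cells. Of the 4 other CXC receptors, CXCR2 was the gene measured on both arrays, by 1 probe at 117 and 80.3. Its log2 ratio was -0.49, which was 1.89 with normexp fitted on all spots. It was -0.29 under normexp without the marked spots and -0.28 without background correction. The other CXCR2 probe was not well above background on either array, at 2.96 and 3.41.

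Further ligands of CXCR7 and of CXCR4, with genes for their receptors and processing, made a list of 11 genes, 6 of them not well above background on either array. All 7 probes measured on both arrays, 4 of them of HMGB1, had ratios under 0. Their median was -0.32, beside -0.0039 over all probes well above background on both arrays. The sign held under each of the 13 other settings, several of which could not change a value. Normexp fitted on all spots also lowered other bright probes, such as that of CLTC, from 0.081 to -0.49. The highest was MIF, a cytokine that binds CXCR4 and CXCR7, at -0.048, which is smaller than the pooled spot SD of 0.080. The 4 probes of HMGB1, a nuclear protein that outside the cell forms a complex with CXCL12, were at -0.32, -0.34, -0.34 and -0.66. ADM, the precursor of adrenomedullin, which CXCR7 can take up, was at -0.20 over 10 spots. None of them was 2-fold apart. DPP4, the peptidase that inactivates CXCL12 and the CXCR3 ligands, gave 19.5 in SAS cells and was not well above background in eSAS cells at 4.43. With the eSAS side set to the lowest signal well above background there, 15.2, its log2 ratio was only bounded, at -0.31 or lower.

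In the interferon-gamma pathway, which induces CXCL9, CXCL10 and CXCL11, IFNG was not well above background on either array and the other 7 genes were measured on both. Their 9 probes had a median log2 ratio of -0.061, and the lowest was that of SOCS1, the feedback inhibitor of the pathway, at -0.39. None of the 9 probes was 2-fold apart, close to the shares over all probes, and with normexp fitted on all spots SOCS1 was at 1.91. It was at -0.18 under normexp without the marked spots and at -0.21 without background correction.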

How the data were processed

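The authors deposited the output of Agilent Feature Extraction 10.7.3.1 for each array, per the labels. Its processed signal is a linear intensity, corrected for background and spatial trend and not scaled between arrays, with a stand-in value where a spot is not above background. The deposited table of the series held the same intensity for all 45015 spots. The study's methods name no scaling or filter.

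The log2 of the processed signal minus each array's 75th percentile over probe spots was taken, and unmarked spots of a probe were averaged. A probe was taken as well above background on an array if more than 50% of its spots were. Where that held on 1 array, the dim side was set to the higher of its own and the lowest signal well above background there. With 1 array per population no test was made. Probe positions are those of the array design in hg18; exons and untranslated regions were not assigned. Of the 9 members, 7 matched an upstream window in the RefSeq table; ACKR3 and ARRB1 did not.

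The members and lists were chosen with earlier results of these data known. Named were all member probes, list genes 2-fold apart, otherwise each list's highest and lowest probe, and the 3 probes nearest to CXCR7. ADM, DPP4, RGS16, the markers, GRK3, STAM and the dim genes of the lists were named after their values were seen. Normexp (offset 50) was run in limma 3.58.1 under R 4.3.3, and the rest in Python 3.11.15. Some single-gene results that meet this rule are not reported here, although counts include them. Counting was tested on simulated data.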

Additional observations from a re-analysis of the deposited data

How the results depend on the processing

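Of 13 other settings, 4 moved the CXCR7 log2 ratio of -3.65 by more than the pooled spot SD of 0.080: normexp on all spots (-0.99), normexp without spots with marked local background (-2.95), no background correction (-3.09) and median pixels under normexp (-0.94). The pooled SD was taken as the yardstick after the values were seen; by the median spot SD of 0.039, no scaling (-3.70) would also count as moved. Member probes at least 2-fold lower, 1 as reported, numbered 0 under normexp on all spots and under median pixels, and 3 with no filter and no lower limit. Member probes at least 2-fold higher, 0 as reported, numbered 1 (ARRB1) under normexp on all spots and under median pixels.

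List probes at least 2-fold lower, 0 as reported, numbered 1 under normexp on all spots and under median pixels, 3 with neither filter nor lower limit and 2 without the lower limit alone. Those at least 2-fold higher, 3 as reported, numbered 15 under normexp on all spots and under median pixels, 5 with neither filter nor lower limit, and 0 without background correction and under normexp without the marked spots. Over all probes, 559 were lower and 520 higher as reported, against 181 and 11304 under normexp on all spots, 179 and 11286 under median pixels, 156 and 86 under normexp without the marked spots, 161 and 125 without background correction, 1536 and 1375 with neither filter nor lower limit, 884 and 651 without the lower limit alone, and 335 and 250 with both arrays well above background. The normexp fit without the marked spots left out 25 spots and was otherwise done as the fit on all spots. The cause of these differences was not tested. Of 754 values for 58 other probes, 623 moved by less than the pooled spot SD. Many of the 623 came from settings that could not change these probes, such as the deposited series table and the changes of filter. The count is therefore not a measure of robustness.

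No paired analysis was possible because each population has 1 array. The software error and spot spread cover 1 RNA sample each, and signals near background have no order.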
